A study of Mus musculus with 75 samples.

Results

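The genes described here are 37 markers of excitatory neurons and of the layers of the mouse cerebral cortex, followed across 26 RNA libraries from mice carrying mutations of the DNA methyltransferase gene Dnmt3a. The list was given by gene name, and its rule uses no measured value, though it was drawn up with earlier results of these data known. Of the 37 genes, 36 were read among the 37310 gene identifiers of the cortex and nuclei counts, where Pou3f2 was not analysed, and all 37 were read among the 55487 identifiers of the hippocampus counts. In each comparison of a mutant with wild type, 36 members passed the filter on low counts and were tested.

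All mice were C57BL/6 at postnatal day 21. Cortex was measured in 3 libraries of Dnmt3a1-/- mice, which lack the long DNMT3A isoform, against 3 Wild type libraries with plain numbers. Cortex of Dnmt3a2-/- mice, which lack the short isoform, was measured in 2 libraries against 2 Wild type libraries numbered with r. The third allele, Dnmt3a1_delta_N, removes the N-terminal part of the long isoform and was measured in 3 cortex libraries against 3 Wild type libraries numbered with n. Hippocampus was measured in 3 Dnmt3a1-/- and 3 Wild type libraries, and nuclei from cortex, sorted with an antibody to the neuronal nuclear protein NEUN, in 2 libraries labelled Dnmt3a1-/- and 2 Wild type libraries. The sort keeps inhibitory as well as excitatory neurons, and whole tissue mixes neurons with glia and vessels. Which Wild type series belongs to which mutant was taken from the numbering of the titles. Nothing in the labels states that each library is a different animal, and the spread behind the p-values may therefore be technical.

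Each library held 8.7 to 39.0 M reads assigned to genes. Dnmt3a itself stood at 73.2, 80.7 and 74.0 CPM (reads of a gene for every 1 M reads assigned to genes) in Dnmt3a1-/- cortex, against 152, 165 and 146 CPM in Wild type cortex. In hippocampus it was 71.5, 76.1 and 72.3 CPM in Dnmt3a1-/- libraries, against 162, 149 and 134 CPM in Wild type. In the nuclei it was 382 and 369 CPM in the libraries labelled Dnmt3a1-/-, against 405 and 399 CPM in Wild type, a log2 difference of -0.10 with an adjusted p of 0.89, so the genotype of these nuclei rests on the label alone. A count per gene adds up both isoforms, and in cortex Dnmt3a was 132 and 144 CPM in Dnmt3a2-/- libraries, against 153 and 145 CPM in their Wild type. These values do not settle the Dnmt3a2-/- genotype, and those of Dnmt3a1_delta_N cortex are not given here, so both also rest on the labels.

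Excitatory neurons of the cortex release glutamate, which vesicular transporters load into synaptic vesicles. Basic helix-loop-helix factors of the NeuroD family act in their differentiation, and sets of transcription factors then set apart the neurons of each layer: Cux1 and Cux2 in upper layers, Rorb in layer 4, and Fezf2, Bcl11b and Tbr1 in the deep layers that project out of the cortex or to the thalamus. DNMT3A places methyl groups on cytosine, and in neurons it does so during the weeks after birth, at CG and at other cytosines. Levels were read from bulk RNA, in which fewer cells of a type and less RNA per cell cannot be told apart.

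The promoters of 5 members that changed in Dnmt3a1-/- cortex and have a single listed start are printed here, because CG dinucleotides are the best known substrate of DNMT3A. Each line gives 250 bases before to 50 bases after the start, 5′ to 3′ on the gene's strand, from RefSeq on GRCm38.p6, with every CG in capitals.
Neurod6, chr6:55681214-55681513, minus strand: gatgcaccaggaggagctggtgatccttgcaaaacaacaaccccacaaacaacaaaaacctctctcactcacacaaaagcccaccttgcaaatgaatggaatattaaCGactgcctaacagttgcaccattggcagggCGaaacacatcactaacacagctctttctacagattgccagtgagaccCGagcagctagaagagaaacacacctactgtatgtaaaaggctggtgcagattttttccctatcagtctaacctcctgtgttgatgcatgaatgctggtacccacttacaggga
Fezf2, chr14:12345816-12346115, minus strand: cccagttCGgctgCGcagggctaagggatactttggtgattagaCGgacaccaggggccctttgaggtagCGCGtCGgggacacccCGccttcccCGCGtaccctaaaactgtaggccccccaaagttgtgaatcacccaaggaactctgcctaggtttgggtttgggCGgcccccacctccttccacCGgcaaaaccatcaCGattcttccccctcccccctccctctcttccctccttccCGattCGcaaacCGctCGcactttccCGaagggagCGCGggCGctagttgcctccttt
Nectin3, chr16:46496918-46497217, minus strand: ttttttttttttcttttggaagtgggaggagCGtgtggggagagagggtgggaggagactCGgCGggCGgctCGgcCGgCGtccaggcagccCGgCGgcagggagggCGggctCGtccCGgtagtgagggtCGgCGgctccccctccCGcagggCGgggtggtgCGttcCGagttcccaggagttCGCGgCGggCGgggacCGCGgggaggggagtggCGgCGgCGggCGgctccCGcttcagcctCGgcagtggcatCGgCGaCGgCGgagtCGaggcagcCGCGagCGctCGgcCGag
Nrgn, chr9:37552696-37552995, minus strand: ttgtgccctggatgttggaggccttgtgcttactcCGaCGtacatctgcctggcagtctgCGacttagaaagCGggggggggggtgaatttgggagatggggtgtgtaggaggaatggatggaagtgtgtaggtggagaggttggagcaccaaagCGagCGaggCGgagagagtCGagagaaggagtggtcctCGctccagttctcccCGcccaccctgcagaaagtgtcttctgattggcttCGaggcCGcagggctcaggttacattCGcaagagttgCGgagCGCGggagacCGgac
Rprm, chr2:54085503-54085802, minus strand: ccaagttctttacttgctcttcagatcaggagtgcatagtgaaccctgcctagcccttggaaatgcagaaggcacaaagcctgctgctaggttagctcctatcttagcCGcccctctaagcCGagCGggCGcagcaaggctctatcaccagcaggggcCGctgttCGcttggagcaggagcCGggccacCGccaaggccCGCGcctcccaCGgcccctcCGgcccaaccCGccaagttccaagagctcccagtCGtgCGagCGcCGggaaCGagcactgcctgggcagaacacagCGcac

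They differ widely in CG content. The Neurod6 window holds 3 CG, and 23.3% of all 32851 promoters in the table hold fewer. Fezf2 holds 20 CG, with 73.5% of promoters below it, Rprm 19, with 71.9% below it, and Nrgn 17, with 68.6% below it. Nectin3 holds 40 CG, with 96.1% of promoters below it. Both the promoter poorest in CG and the one richest in it belong to genes that fell in Dnmt3a1-/- cortex. Promoters were found for 30 members, at 43 starts, and held a median of 17 CG, against 7 over all promoters. No entry was read for Foxp2, Crym, Nxph4, Sulf1, Otof, Oprk1 and Cdh13. CAGATG, an E-box of the kind that NeuroD factors bind, was searched on both strands. It was present in 7 of the 43 member promoters (16.3%), against 17.2% of all promoters, and among the 5 printed only in Nrgn. These matches describe letters and not binding.

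The first comparison asked which excitatory and layer markers differ in cortex without the long isoform. In Dnmt3a1-/- cortex 4 members rose (Otof, Rprm, Fezf2 and Crym) and 4 fell (Neurod6, Nectin3, Mef2c and Nrgn), of 36 tested by edgeR's quasi-likelihood test at an adjusted p below 0.05. The changes were moderate, with log2 fold changes between -0.69 and 0.80, and 32 of the 36 members lay within 0.5 of 0. Over all genes, 17.9% of 15933 were called (8.95% higher and 8.91% lower), so 8 of 36 (22.2%) is near the share among all genes. The median member stood at -0.09 on the log2 scale, against 0.01 for all genes tested, with 13 members above 0 and 23 below. The libraries of the groups did not overlap for 12 members, 5 higher and 7 lower, against 36.1% of all genes. At an unadjusted p under 0.05, 15 members passed, against 32.4% of all genes.

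**Figure D1:**
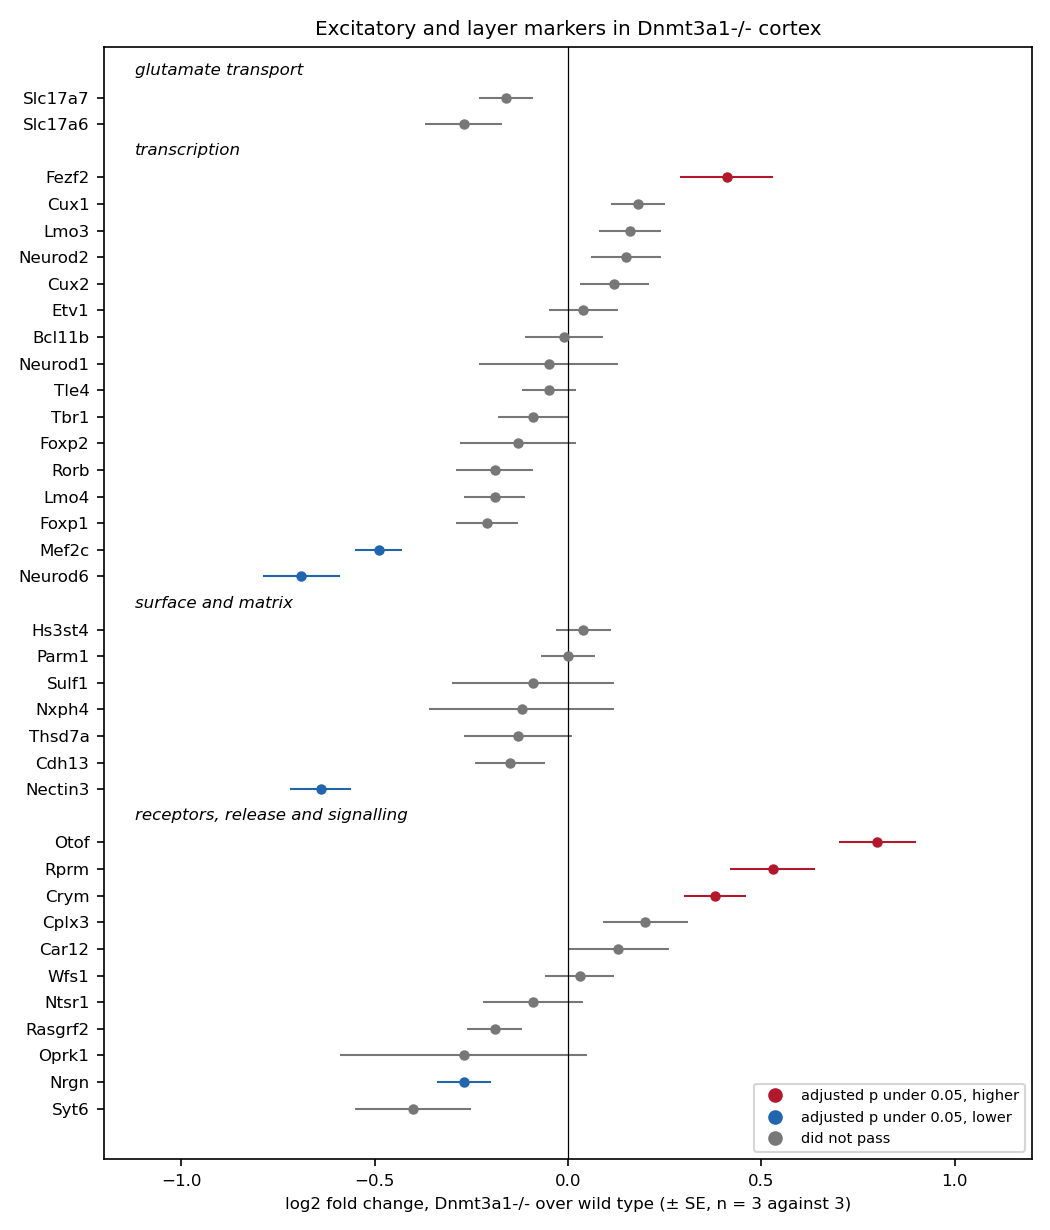
Log2 fold change of each of the 36 tested members in Dnmt3a1-/- (3a1KO) cortex over Wild type cortex (3 libraries each), grouped by role, with bars of 1 standard error. Otof at 0.80 and Rprm at 0.53 lie farthest above 0, and Neurod6 at -0.69 and Nectin3 at -0.64 farthest below it.

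The glutamate transporters come first by role. Slc17a7, the vesicular glutamate transporter of most cortical excitatory neurons, was 1060, 1220 and 1070 CPM in Dnmt3a1-/- cortex, against 1150, 1320 and 1260 CPM in Wild type. The groups overlapped, and the log2 fold change of -0.16 ± 0.07 (SE) did not pass (adjusted p = 0.14). Slc17a6, the transporter more typical of thalamus, was 15.0, 15.7 and 14.5 CPM in Dnmt3a1-/- cortex, against 16.2, 18.4 and 19.9 CPM in Wild type. Every mutant library was below every Wild type library, with a log2 fold change of -0.27 ± 0.10 that did not pass (adjusted p = 0.081).

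Among the transcription factors, 3 of 16 changed: Neurod6 and Mef2c fell, and Fezf2 rose. Neurod6 (ENSMUSG00000037984), a NeuroD family factor of excitatory neurons, was 10.4, 10.6 and 12 CPM in Dnmt3a1-/- cortex, against 18.5, 16.8 and 18.2 CPM in Wild type. The groups were well apart, and the log2 fold change was -0.69 ± 0.10 (adjusted p = 0.00068). Mef2c (ENSMUSG00000005583), a MADS-box factor that couples neuronal activity to synapse number, was 277, 254 and 275 CPM in Dnmt3a1-/- cortex, against 375, 373 and 378 CPM in Wild type. The Wild type libraries were nearly alike, and the mutant ones all lower, at -0.49 ± 0.06 (adjusted p = 0.00038). Fezf2 (ENSMUSG00000021743), which specifies subcortical projection neurons of layer 5, was 12.4, 13.5 and 12.7 CPM in Dnmt3a1-/- cortex, against 8.02, 10.6 and 10.5 CPM in Wild type. All mutant libraries were higher, at 0.41 ± 0.12 (adjusted p = 0.035), but the call was lost when Wild type replicate 1 or any 1 of the 3 Dnmt3a1-/- libraries was left out, with adjusted p between 0.053 and 0.13.

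The other factors that mark single layers did not pass in this fit, which takes no account of replicate number. Cux1, Foxp1, Rorb, Lmo3 and Lmo4 passed in the fit blocked on that number, described below, where 31% of all genes were called. The values here are from the fit without the block. Cux1, of upper layers, was 88.1, 88.7 and 89.2 CPM in Dnmt3a1-/- cortex, against 82.3, 80.2 and 72.1 CPM in Wild type (log2 fold change 0.18 ± 0.07, adjusted p = 0.079). Foxp1, a forkhead factor found in several layers, was 52.0, 50.4 and 60.6 CPM in Dnmt3a1-/- cortex, against 64.5, 62.0 and 62.0 CPM in Wild type (-0.21 ± 0.08, adjusted p = 0.07). Neither pair of groups overlapped. Rorb, the nuclear receptor that marks layer 4, gave -0.19 ± 0.10, the layer 6 factor Tbr1 -0.09 ± 0.09, the layer 5 factor Bcl11b -0.01 ± 0.10 and the upper-layer factor Cux2 0.12 ± 0.09. The intervals of ±2 SE limit these: Bcl11b lay between -0.21 and 0.18, Tbr1 between -0.27 and 0.10, and Tle4, a corepressor of deep layers, between -0.19 and 0.09. Lmo3 and Lmo4, LIM-only cofactors, gave 0.16 ± 0.08 and -0.19 ± 0.08. The NeuroD family members Neurod1 (-0.05 ± 0.18) and Neurod2 (0.15 ± 0.09), the ETS factor Etv1 of layer 5 (0.04 ± 0.09) and the forkhead factor Foxp2 of layer 6 (-0.13 ± 0.15) did not pass either.

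Of the 7 surface and matrix genes, 1 changed. Nectin3 (ENSMUSG00000022656), an immunoglobulin-like adhesion molecule of contacts between neurons, was 32.6, 31.0 and 36.3 CPM in Dnmt3a1-/- cortex, against 56.2, 49.5 and 49.8 CPM in Wild type. The gap between the groups was wider than the spread in either, at -0.64 ± 0.08 (adjusted p = 0.00037). Cdh13, a cadherin held in the membrane by a lipid anchor, Hs3st4, a heparan sulfate sulfotransferase, and Parm1, a mucin-like membrane protein, gave -0.15 ± 0.09, 0.04 ± 0.07 and 0.00 ± 0.07. Nxph4, a secreted neurexophilin, was near the lower limit of detection, at 0.851 to 1.03 CPM from 10 to 27 reads in Dnmt3a1-/- cortex, against 0.956 to 1.08 CPM from 17 to 29 reads in Wild type. Thsd7a, a thrombospondin-domain membrane protein, gave -0.13 ± 0.14 and Sulf1, a heparan sulfate sulfatase, -0.09 ± 0.21.

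Of the 11 genes for receptors, vesicle release and signalling, 3 rose and 1 fell. Otof (ENSMUSG00000062372), a calcium sensor of vesicle release best known from cochlear hair cells, was 28.8, 32.5 and 26.8 CPM in Dnmt3a1-/- cortex, against 15.2, 19.1 and 16.2 CPM in Wild type. The groups did not overlap, and its log2 fold change of 0.80 ± 0.10 was the largest of any member in this comparison (adjusted p = 0.00041). Rprm (ENSMUSG00000075334), a cell-cycle arrest gene that marks layer 6, was 46.7, 37.5 and 33.2 CPM in Dnmt3a1-/- cortex, against 28.4, 26.6 and 25 CPM in Wild type. The mutant libraries were all higher but spread over a wider range, at 0.53 ± 0.11 (adjusted p = 0.0046). Crym (ENSMUSG00000030905), which binds thyroid hormone in the cytosol, was 44.4, 45.4 and 51.1 CPM in Dnmt3a1-/- cortex, against 38.4, 33.3 and 36.5 CPM in Wild type, again without overlap (0.38 ± 0.08, adjusted p = 0.0073). Nrgn (ENSMUSG00000053310), neurogranin, which holds calmodulin at excitatory postsynapses, was 363, 393 and 358 CPM in Dnmt3a1-/- cortex, against 450, 475 and 410 CPM in Wild type. The groups did not overlap (-0.27 ± 0.07, adjusted p = 0.016), but the call was lost without Wild type replicate 2 (adjusted p = 0.081) or without Dnmt3a1-/- replicate 1 (adjusted p = 0.064). In the same role, the neurotensin receptor gene Ntsr1 (-0.09 ± 0.13), the opioid receptor gene Oprk1 (-0.27 ± 0.32), Cplx3 (0.20 ± 0.11), Wfs1 (0.03 ± 0.09) and Car12 (0.13 ± 0.13) did not pass.

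**Figure D2:**
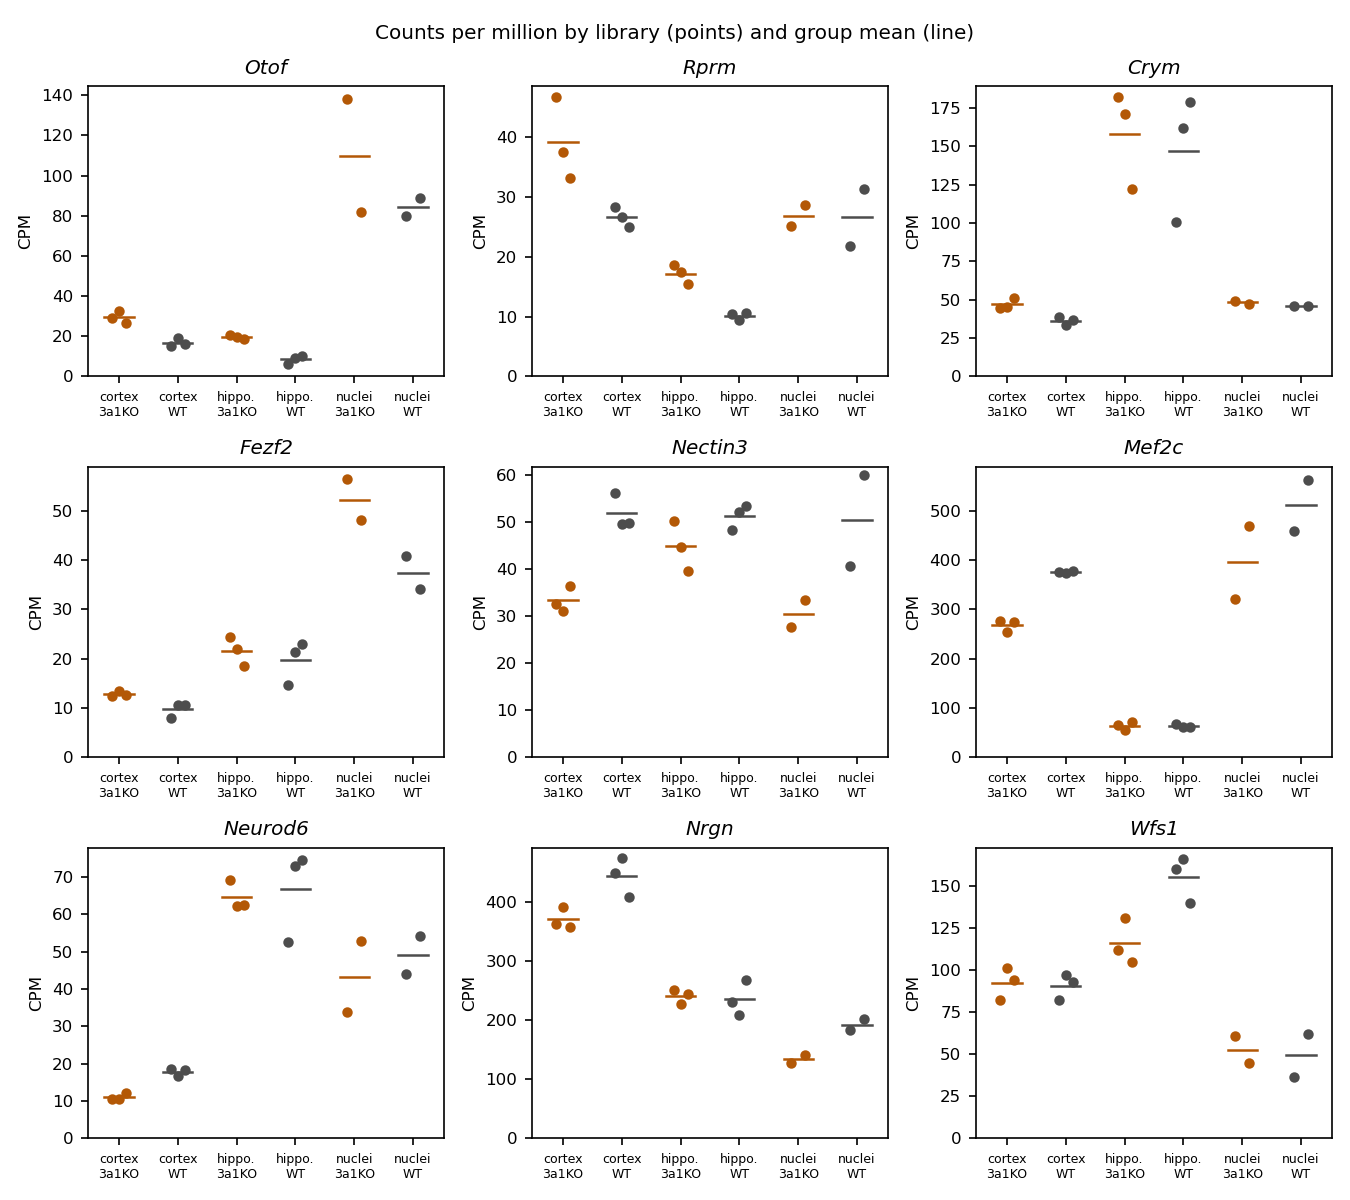
CPM in each library (points) and group mean (line) for the 9 members called in cortex or hippocampus, with Dnmt3a1-/- (3a1KO) left of Wild type in cortex, hippocampus and sorted nuclei. The groups of Neurod6 and Mef2c do not overlap in cortex and overlap in hippocampus and nuclei; those of Otof and Rprm do not overlap in cortex or in hippocampus.

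By layer, the counts are small and no test was made between layers; 17.9% of all genes were called. Of 12 deep-layer members 2 rose, Fezf2 and Rprm, and 0 fell, with values between -0.40 (Syt6) and 0.53 (Rprm) and a median of -0.03. At an unadjusted p under 0.05 Syt6, a synaptotagmin of layer 6, also passed among them, in the opposite direction. Of 5 tested upper-layer members Otof rose, and the median was 0.12. In this fit, which takes no account of replicate number, the 18 members not tied to 1 layer held all 4 that fell. Crym rose among them, and their median was -0.16. In the fit blocked on replicate number, described below, 31% of all genes were called and markers of single layers fell too. These included Syt6 (-0.43, adjusted p = 0.00025), Rorb of layer 4 (-0.18, adjusted p = 0.038) and Rasgrf2 of upper layers (-0.19, adjusted p = 0.0094). Cux1 of upper layers rose there (0.18, adjusted p = 0.017). Another 37 excitatory and layer genes were tested as a wider list, and 13 of them (35.1%) changed, 5 higher and 8 lower, with a median of 0. They included Calb1, a calcium buffer (-0.55 ± 0.08, adjusted p = 0.00059), and the neurofilament genes Nefm (-0.48 ± 0.07) and Nefh (-0.52 ± 0.08).

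Markers of other cells were read in the same libraries, where 17.9% of all genes were called (8.95% higher and 8.91% lower). The 12 choroid plexus markers summed to 842 to 2040 CPM in Dnmt3a1-/- cortex, against 130 to 771 CPM in Wild type, and all 12 were positive with a median log2 fold change of 1.01, though 0 were called by edgeR and 2 passed at an unadjusted p under 0.05. The inhibitory neuron markers summed to 1640 to 1900 CPM in Dnmt3a1-/- cortex, against 1960 to 2120 CPM in Wild type, and 6 of 23 fell, among them Kcnc2 (-0.41), Kcnc1 (-0.42), Cck (-0.41) and Reln (-0.30). The members themselves summed to 2990 to 3170 CPM, against 3280 to 3510 CPM in Wild type. Astrocyte markers summed to 17000 to 17800 CPM, against 15800 to 17100 CPM, with 3 of 12 higher and 1 lower. Myelin markers summed to 19800 to 23800 CPM, against 17300 to 20500 CPM, with 2 of 12 higher. Of 12 microglia markers 2 fell, and of 12 endothelial markers 4 fell. The called shares were 26.1% for inhibitory neuron markers and 33.3% each for astrocyte and endothelial markers. For myelin and microglia markers they were 16.7% each, near the share of all genes. The 15 striatum markers summed to 322, 501 and 684 CPM in Dnmt3a1-/- cortex, by replicate number, against 549, 604 and 646 CPM in Wild type. Of these markers 12 were negative, with a median log2 fold change of -0.2, and 1 was called, higher. By replicate number, Rprm ran opposite to these sums in both groups, and Syt6 ran with them. No marker of these lists was at 0 in these libraries, and their part in the members' values was not tested.

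Same-numbered Dnmt3a1-/- and Wild type cortex libraries deviated together, and in a fit blocked on that number 18 of 36 members were called, 6 higher and 12 lower, against 31% of all genes. The 10 gained were Slc17a7 (adjusted p = 0.014), Slc17a6 (adjusted p = 0.021), Cux1 (adjusted p = 0.017), Rorb (adjusted p = 0.038), Foxp1 (adjusted p = 0.01), Lmo3 (adjusted p = 0.046), Lmo4 (adjusted p = 0.0099), Rasgrf2, a Ras exchange factor of upper layers (adjusted p = 0.0094), Cdh13 (adjusted p = 0.035) and Syt6. Syt6 was 13.8, 17.8 and 20.0 CPM in Dnmt3a1-/- cortex, against 19.1, 24.1 and 25.9 CPM in Wild type. Within each replicate number the mutant was lower, and the blocked log2 fold change was -0.43 (adjusted p = 0.00025). The 8 members called without the block kept their calls with it.

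The Wild type cortex libraries themselves differed between numbering series. Against the plain series, 17 members were higher and 2 lower in the r series, where 33.3% of all genes were called (17.2% higher and 16% lower), and 5 were higher and 3 lower in the n series, where 20.1% were called (10.6% higher and 9.42% lower). Between the r and n series 13 were higher and 2 lower in r, where 27.3% were called (13.8% higher and 13.5% lower). Neurod6 was 34.4 and 40.2 CPM in the r series and 25.8, 23.6 and 30.7 CPM in the n series, above all plain libraries. Rprm was 37.0 and 36.8 CPM in the r series and 38.2, 32.4 and 45.2 CPM in the n series, which overlaps the Dnmt3a1-/- values. Fezf2 behaved alike, with 12.3 and 15.5 CPM in the r series and 16.8, 11.9 and 14.6 CPM in the n series. Markers of other cells moved as well: in the r series against the plain series, 10 of 12 microglia, 7 of 12 endothelial and 7 of 12 astrocyte markers were lower, with median log2 fold changes of -0.35, -0.37 and -0.28. In the n series against the plain series, 5 of 12 astrocyte markers were lower. Their part in the members' values was not tested.

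Set against all 8 Wild type cortex libraries, the Dnmt3a1-/- libraries lay wholly below for 6 members and wholly above for 3, against 10.9% and 9.52% of all genes. Below were Neurod6 (10.4 to 12 CPM, against 16.8 to 40.2), Mef2c (254 to 277, against 322 to 494), Nectin3 (31.0 to 36.3, against 39.0 to 59.6), Nrgn (358 to 393, against 410 to 811), Foxp1 (50.4 to 60.6, against 62.0 to 80.7) and Slc17a6 (14.5 to 15.7, against 16.1 to 26.9). Above were Otof (26.8 to 32.5, against 14.2 to 22.5), Crym (44.4 to 51.1, against 33.3 to 42.7) and Cux1 (88.1 to 89.2, against 65.4 to 82.3). The other 27 overlapped, Fezf2 and Rprm among them. In the fit with all 8 Wild type libraries, Fezf2 gave 0.06 (adjusted p = 0.82) and Rprm 0.23 (adjusted p = 0.31). Neurod6 gave -1.22 (adjusted p = 0.011) and Nrgn -0.64 (adjusted p = 0.026), both farther from 0 than against the plain series alone. Slc17a7, Cux1, Foxp1 and Syt6 passed in addition, and 10 members were called, against 18.9% of all genes. This fit has no term for the numbering series, and the Dnmt3a1-/- libraries were matched to the plain series only. Nrgn averaged 445 CPM in the plain series, 676 CPM in the r series and 672 CPM in the n series. Series and genotype therefore cannot be told apart in the values of this fit.

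**Figure D3:**
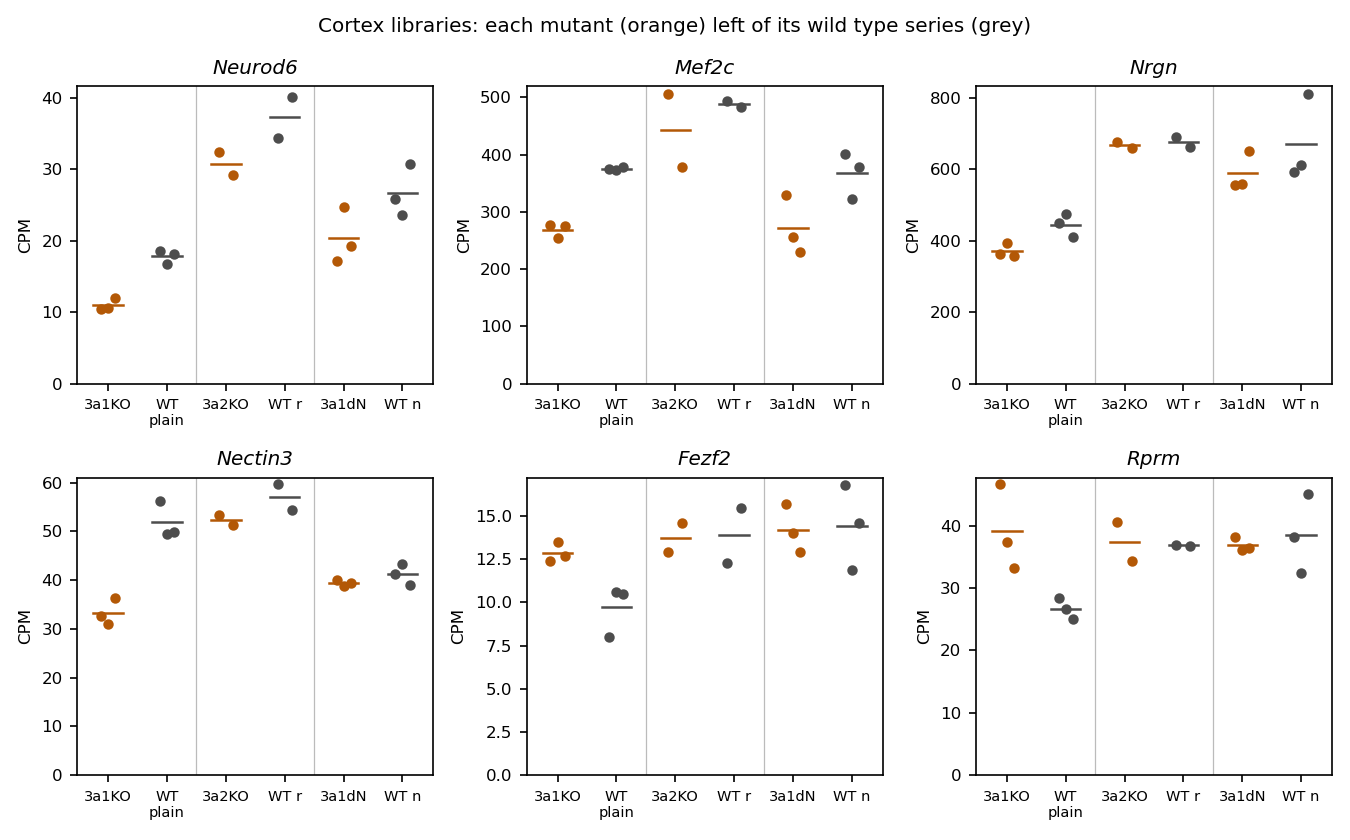
CPM of 6 members in the 16 cortex libraries, each mutant left of its own Wild type series: Dnmt3a1-/- (3a1KO) and plain Wild type, Dnmt3a2-/- (3a2KO) and Wild type r, Dnmt3a1_delta_N (3a1dN) and Wild type n. Dnmt3a1-/- values of Neurod6, Mef2c, Nrgn and Nectin3 lie below all 8 Wild type libraries, while those of Fezf2 and Rprm lie among them.

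In cortex without the short isoform, 0 of 36 members passed edgeR's test and 0 passed DESeq2. Over all genes edgeR called 0.00628% of 15929 and DESeq2 0.0502%. At an unadjusted p under 0.05 there were 3 members, Sulf1, Crym and Neurod6, against 2.87% of all genes. Sulf1, an extracellular enzyme that trims sulfate from heparan sulfate, was 19.0 and 30.9 CPM in Dnmt3a2-/- cortex, against 16.6 and 17.3 CPM in Wild type (log2 fold change 0.54 ± 0.20, adjusted p = 1). One mutant library was high, and the other close to Wild type. The choroid plexus markers summed to 20.3 and 1640 CPM in the same Dnmt3a2-/- libraries, in the same order, against 284 and 27.7 CPM in Wild type, and Car12, a membrane carbonic anhydrase, was 9.58 and 22.0 CPM, against 13.4 and 12.2 CPM. Their part in the Sulf1 value was not tested. Without Dnmt3a2-/- replicate 1, Sulf1 gave 0.85 (adjusted p = 0.0064) and Car12 was also called. Without Dnmt3a2-/- replicate 2, Sulf1 gave 0.17 (adjusted p = 0.51).

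The members that changed in Dnmt3a1-/- cortex were mostly close to Wild type here. Nectin3 was 53.3 and 51.2 CPM in Dnmt3a2-/- cortex, against 59.6 and 54.4 CPM in Wild type, and Nrgn was 676 and 661 CPM, against 690 and 663 CPM. Mef2c was 506 and 379 CPM, against 494 and 484 CPM, with the Wild type libraries inside the mutant range. Neurod6 was 32.4 and 29.2 CPM, against 34.4 and 40.2 CPM, without overlap, and Crym 46.7 and 44.8 CPM, against 37.9 and 39.4 CPM, likewise. With 2 libraries a group such separation is common: of the 36 members, 6 were higher and 8 lower without overlap. The share over all genes is not given here. Over all members, 34 of 36 lay within 0.5 of 0 on the log2 scale, and the median standard error was 0.11.

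In Dnmt3a1_delta_N cortex 0 of 36 members passed edgeR's test and 0 passed DESeq2, where edgeR called 0% of 15881 genes and DESeq2 0.199%. At an unadjusted p under 0.05 there were 7 members (Foxp1, Mef2c, Neurod6, Tbr1, Foxp2, Wfs1 and Otof), against 7.98% of all genes. Foxp1 had the smallest p, at 54.9, 54.8 and 44.3 CPM in Dnmt3a1_delta_N cortex, against 65.7, 64.3 and 64.9 CPM in Wild type (-0.33 ± 0.08, adjusted p = 0.46). No mutant library reached the Wild type range, and all 3 also lay below all 8 Wild type cortex libraries, as did 2.58% of all genes. Mef2c was 329, 256 and 229 CPM, against 401, 322 and 378 CPM, with 1 mutant library inside the Wild type range (-0.42 ± 0.13, adjusted p = 0.55). Same-numbered libraries deviated together here, and with the replicate block Foxp1 (-0.33, adjusted p = 0.038) and Mef2c (-0.43, adjusted p = 0.028) passed, 2 of 36 members against 0.749% of all genes.

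Other members can be read beside their Dnmt3a1-/- values. Otof was 24.6, 26.3 and 22.7 CPM in Dnmt3a1_delta_N cortex, against 22.3, 22.5 and 15.1 CPM in Wild type, with every mutant library higher (0.31, adjusted p = 0.62). Neurod6 was 17.1, 24.8 and 19.3 CPM, against 25.8, 23.6 and 30.7 CPM, and the groups overlapped (-0.37, adjusted p = 0.60). Nectin3 was 40.0, 38.8 and 39.4 CPM, against 41.3, 43.2 and 39.0 CPM, with little between them. All 36 members lay within 0.5 of 0.

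The difference between the Dnmt3a1-/- and Dnmt3a1_delta_N effects was tested directly, each against its own Wild type series. Nectin3 passed, at -0.59 ± 0.11 on the log2 scale for the Dnmt3a1-/- effect minus the Dnmt3a1_delta_N effect (interval -0.81 to -0.38, adjusted p = 0.044), 1 of 36 members where 0.103% of 16456 genes were called. Nectin3 was lower in the n series than in the plain series of Wild type (-0.37, adjusted p = 0.0026), and its Dnmt3a1_delta_N values of 38.8 to 40.0 CPM lay nearer to the Dnmt3a1-/- values than to the plain Wild type values. The call was lost in 10 of 16 alternatives, in which any 1 library other than Dnmt3a1-/- replicate 3 or Dnmt3a1_delta_N replicate 1 was left out, with adjusted p from 0.06 to 0.14. With the replicate block, Rprm (0.57, adjusted p = 0.014) and Otof (0.47, adjusted p = 0.048) passed too, and Nectin3 had an adjusted p of 0.0052, 3 members against 2.91% of all genes.

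In hippocampus the question was whether the same markers differ without the long isoform. There Otof and Rprm rose and Wfs1 fell in Dnmt3a1-/- libraries, 3 of 36 members (8.33%) where 2.52% of 15727 genes were called, 1.69% higher and 0.827% lower. Otof was 20.4, 19.4 and 18.8 CPM in Dnmt3a1-/- hippocampus, against 6.34, 9.03 and 9.90 CPM in Wild type. The mutant libraries were tightly grouped far above Wild type (1.16 ± 0.14, adjusted p = 0.0019). Rprm was 18.7, 17.4 and 15.4 CPM in Dnmt3a1-/- hippocampus, against 10.5, 9.36 and 10.6 CPM in Wild type, also without overlap (0.73 ± 0.12, adjusted p = 0.0073). Wfs1 (ENSMUSG00000039474), which encodes wolframin, an endoplasmic reticulum membrane protein enriched in CA1, was 112, 131 and 105 CPM in Dnmt3a1-/- hippocampus, against 160, 166 and 140 CPM in Wild type (-0.44 ± 0.10, adjusted p = 0.034). Leaving out Wild type replicate 2, Dnmt3a1-/- replicate 1 or Dnmt3a1-/- replicate 3 ended the Wfs1 call, with adjusted p of 0.15, 0.11 and 0.11.

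Of the 4 members that fell in cortex, Mef2c, Neurod6 and Nrgn gave values near 0 in hippocampus, and Nectin3 a smaller negative value that did not pass. Mef2c was 65.8, 55.0 and 71.7 CPM in Dnmt3a1-/- hippocampus, against 68.1, 62.3 and 60.6 CPM in Wild type, with overlapping groups (0.00 ± 0.11, interval -0.22 to 0.21). Neurod6 was 69.1, 62.3 and 62.5 CPM, against 52.6, 73.0 and 74.5 CPM (-0.08 ± 0.12). Wild type replicate 1 was low, and the other Wild type libraries lay above all mutant ones. That replicate had the fewest reads, 8.7 M. Its astrocyte markers summed to 16700 CPM and its microglia markers to 1820 CPM, against at most 13700 and 1350 CPM in the other Wild type libraries. The part of these markers in the members' values was not tested. Nrgn was 252, 228 and 244 CPM, against 231, 209 and 268 CPM, at 0.01 ± 0.10. Nectin3 was 50.1, 44.7 and 39.6 CPM, against 48.3, 52.1 and 53.4 CPM, at -0.23 ± 0.09 (adjusted p = 0.21). Crym was 182, 171 and 122 CPM, against 101, 162 and 179 CPM, and Fezf2 24.3, 22.0 and 18.5 CPM, against 14.6, 21.4 and 22.9 CPM, both with wide overlap. For none of the 36 members did the difference between the cortex and hippocampus effects pass the test in edgeR or DESeq2, where edgeR called 0% of 15433 genes and DESeq2 0.0198%. In edgeR 7 members had an unadjusted p under 0.05, against 5.03% of all genes. The member with the smallest p in that difference was Neurod6, at -0.62 ± 0.16 for cortex minus hippocampus (adjusted p = 0.58, interval -0.94 to -0.29).

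Several hippocampal values were unsteady. Sulf1 was 10.6, 19.8 and 3.36 CPM in Dnmt3a1-/- hippocampus, against 5.65, 6.73 and 4.98 CPM in Wild type (0.88 ± 0.70). The choroid plexus markers summed to 568, 1900 and 65.1 CPM in the same Dnmt3a1-/- libraries, in the same order, against 83.8, 116 and 96.3 CPM in Wild type, and their part in Sulf1 was not tested. Bcl11b (-0.25 ± 0.08, adjusted p = 0.14) was lower, and Cux2 (0.29 ± 0.11, adjusted p = 0.17), Tbr1 (0.19 ± 0.11) and Lmo4 (0.17 ± 0.09) were higher, in every mutant library without passing. Together with Otof, Rprm and Wfs1, the groups did not overlap for 5 members higher and 2 lower. The share over all genes is not given here, so these separations are not read as changes. Pou3f2, an upper-layer POU factor, was 13.3, 8.82 and 10.2 CPM in Dnmt3a1-/- hippocampus, against 10, 8.24 and 9.14 CPM in Wild type. Foxp2 and the kappa opioid receptor gene Oprk1 were close to the limit of detection, at 0.88, 0.684 and 0.904 CPM for Foxp2 in Dnmt3a1-/- hippocampus, against 1.15, 0.673 and 0.273 CPM in Wild type.

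In sorted nuclei, 0 of 36 members passed edgeR's test and 0 passed DESeq2 between the libraries labelled Dnmt3a1-/- and Wild type, where edgeR called 0.246% of 15860 genes and DESeq2 0.525%. At an unadjusted p under 0.05 there were 3 members, Nectin3, Nrgn and Fezf2, against 8.98% of all genes. Nectin3 was 27.7 and 33.3 CPM in nuclei labelled Dnmt3a1-/-, against 40.7 and 60.0 CPM in Wild type nuclei (-0.72 ± 0.18, adjusted p = 0.13). Its log2 fold change was -0.42 without Wild type replicate 2 (adjusted p = 0.75), and it passed at -0.86 without replicate 2 of the nuclei labelled Dnmt3a1-/- (adjusted p = 0.0028). Nrgn was 127 and 141 CPM, against 183 and 202 CPM (-0.52 ± 0.15, adjusted p = 0.21). Fezf2 was 56.4 and 48.0 CPM, against 40.7 and 34.1 CPM (0.48 ± 0.15, adjusted p = 0.27). In all 3 genes the groups did not overlap, as for 38.5% of all genes, and the sign was that of whole cortex. Otof was 138 and 81.9 CPM, against 79.8 and 88.6 CPM, and Mef2c 321 and 469 CPM, against 458 and 563 CPM, both overlapping. Neurod6 was 33.9 and 52.7 CPM, against 44.0 and 54.1 CPM, and Rprm 25.2 and 28.6 CPM, against 21.8 and 31.4 CPM. With 2 libraries a group, the interval for Neurod6 ran from -0.55 to 0.20 and that for Rprm from -0.33 to 0.37. The difference between the cortex and nuclei effects passed for 0 members in edgeR, where 0.341% of 17305 genes were called, and for 0 in DESeq2, where 2.07% were. In edgeR 5 members had an unadjusted p under 0.05, against 13.8% of all genes. The difference was 0.51 ± 0.20 for Rprm (adjusted p = 0.28), but 0.25 without Wild type nuclei replicate 2.

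**Figure D4:**
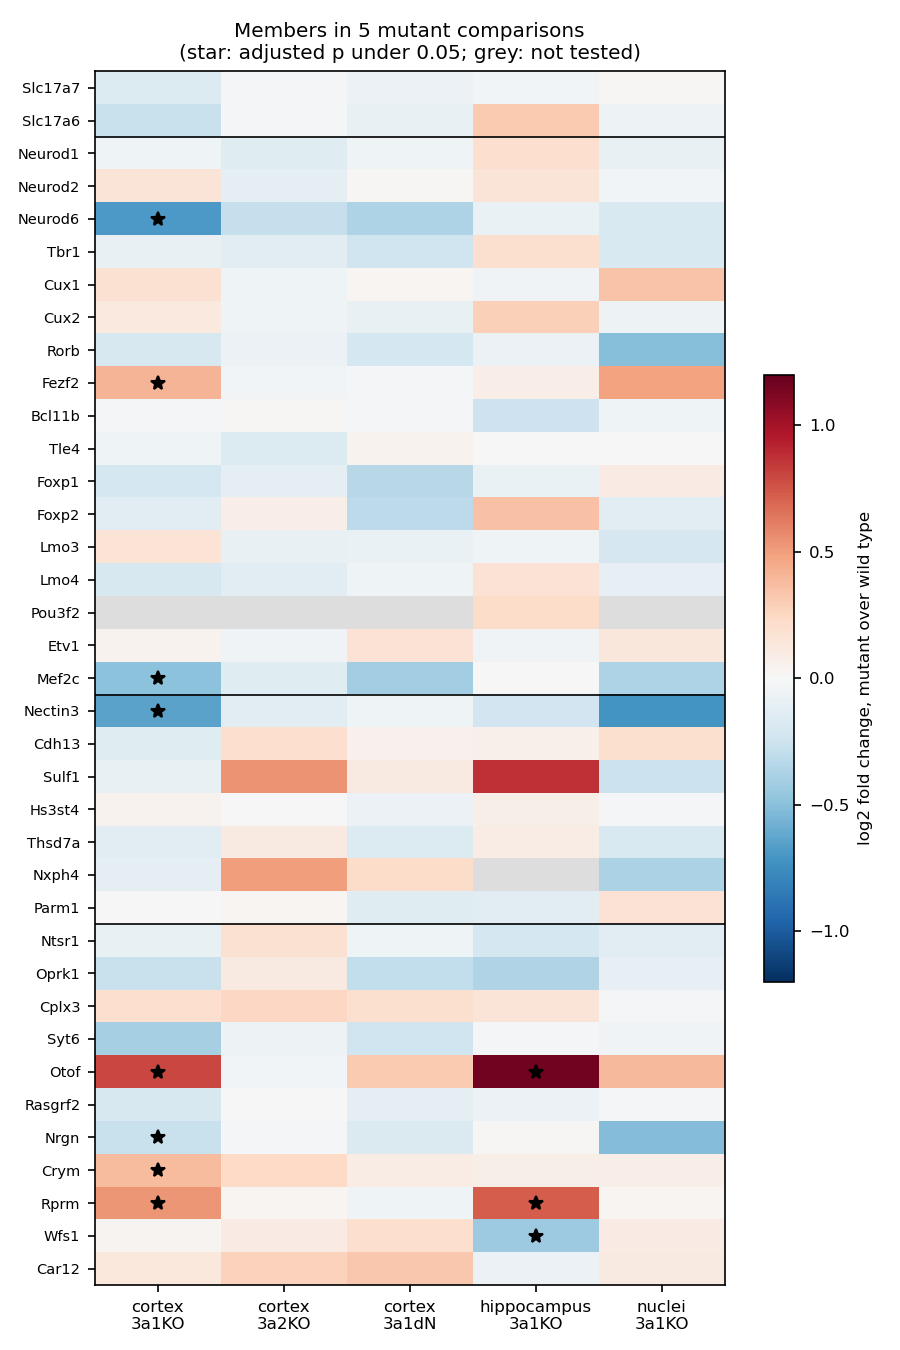
Log2 fold change of every member (rows) in 5 comparisons (columns): cortex Dnmt3a1-/- (3a1KO), Dnmt3a2-/- (3a2KO) and Dnmt3a1_delta_N (3a1dN), hippocampus Dnmt3a1-/- and nuclei labelled Dnmt3a1-/-, each over its Wild type. A star marks an adjusted p below 0.05 in the fits without the replicate block, and grey a gene not tested. In Dnmt3a1-/- cortex 8 stars stand, and 3 in hippocampus.

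Across the 5 comparisons, fitted without the replicate block, 9 members passed at least once and 28 in none. Over all genes, 17.9% passed in Dnmt3a1-/- cortex and 2.52% in hippocampus, the comparisons with member calls. In the fits blocked on replicate number, 18 of 36 members passed in Dnmt3a1-/- cortex, against 31% of all genes. In Dnmt3a1_delta_N cortex 2 of 36 did, against 0.749%. Otof and Rprm passed in both cortex and hippocampus of Dnmt3a1-/- mice, which rest on separate Wild type libraries. The labels do not say whether the tissues came from different mice. In cortex the Dnmt3a1-/- values of Rprm overlapped the r and n series, and against all 8 Wild type libraries it gave 0.23 (adjusted p = 0.31). Otof had a positive log2 fold change in Dnmt3a1-/- cortex, Dnmt3a1_delta_N cortex, Dnmt3a1-/- hippocampus and nuclei labelled Dnmt3a1-/-, with adjusted p-values above the threshold in the nuclei (0.39, adjusted p = 0.59) and in Dnmt3a1_delta_N cortex. In the nuclei 1 library labelled Dnmt3a1-/-, at 81.9 CPM, lay within the Wild type range of 79.8 to 88.6 CPM. In Dnmt3a1_delta_N cortex the lowest mutant library was 22.7 CPM and the highest Wild type library 22.5 CPM.

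Wild type levels of the members were then compared between the sources of RNA. In Wild type nuclei against plain Wild type cortex, 31 of 36 members differed, 21 higher and 10 lower, against 83.9% of 16787 genes (42.1% higher and 41.8% lower). The median member stood at 0.54, against 0.02 for all genes. Glial and vascular markers were depleted in the nuclei, with all 12 astrocyte, 12 myelin, 12 microglia and 12 endothelial markers lower at medians of -5.65, -5.72, -6.94 and -6.94, and 749 to 762 CPM for the summed astrocyte markers, against 15800 to 17100 CPM in cortex. Transcription factors of the list were mostly higher in nuclei, 12 of 16, led by Neurod1 (2.19 ± 0.16), Foxp2 (1.89 ± 0.13) and Fezf2 (1.65 ± 0.14). Otof was 79.8 and 88.6 CPM in Wild type nuclei, against 15.2, 19.1 and 16.2 CPM in Wild type cortex (2.02 ± 0.11), and Oprk1 was higher by the same amount (2.02 ± 0.15). Lower in nuclei was Cux1, with 15.2 and 15.5 CPM in Wild type nuclei, against 82.3, 80.2 and 72.1 CPM in cortex (-2.65 ± 0.10, adjusted p = 1.5e-11), and so did Cplx3, a complexin of vesicle release (-1.95 ± 0.13), Nrgn (-1.51 ± 0.11) and Cdh13 (-1.41 ± 0.13). Sorting, nuclear RNA and library preparation cannot be told apart in these values.

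**Figure D5:**
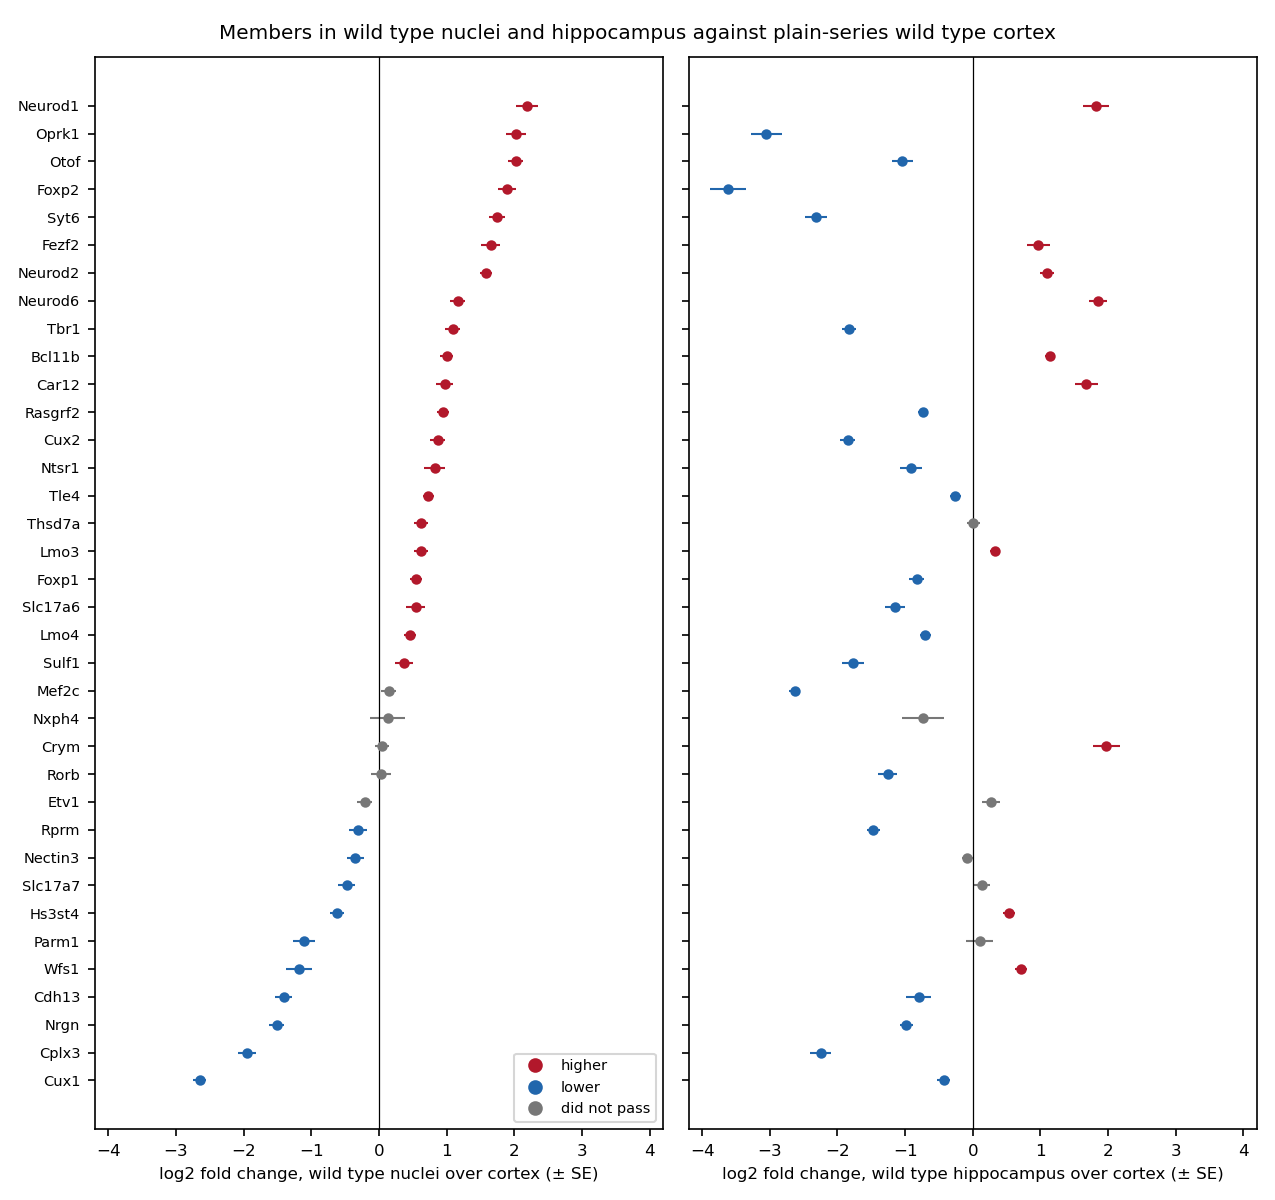
Log2 fold change of each tested member in Wild type nuclei and in Wild type hippocampus over plain Wild type cortex, with bars of 1 standard error. Neurod1 is higher in both (2.19 and 1.82), while Foxp2 is 1.89 in nuclei and -3.62 in hippocampus.

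Wild type hippocampus differed from plain Wild type cortex for 30 of 36 members, 10 higher and 20 lower, against 45.3% of 14897 genes (22.1% higher and 23.2% lower), and the median member stood at -0.72, against -0.02 for all genes. Mef2c was 68.1, 62.3 and 60.6 CPM in hippocampus, against 375, 373 and 378 CPM in cortex (-2.63 ± 0.08). Layer markers such as Foxp2 (-3.62 ± 0.27), Syt6 (-2.32 ± 0.16), Cplx3 (-2.25 ± 0.16), Cux2 (-1.85 ± 0.11), Tbr1 (-1.83 ± 0.10) and Rorb (-1.26 ± 0.14) were lower too. Higher in hippocampus were Crym (1.97 ± 0.20), Neurod6 (1.85 ± 0.13), Neurod1 (1.82 ± 0.19), Car12 (1.68 ± 0.17), Bcl11b (1.14 ± 0.08), Neurod2 (1.10 ± 0.10), Fezf2 (0.97 ± 0.17) and Wfs1 (0.71 ± 0.09). Of 12 deep-layer members 3 were higher and 7 lower, and of 5 upper-layer members 1 was higher and 4 lower. Otof and Rprm, which rose in both tissues of Dnmt3a1-/- mice, were lower in Wild type hippocampus than in Wild type cortex (-1.04 ± 0.15 and -1.47 ± 0.10). In Dnmt3a1-/- hippocampus Otof, at 18.8 to 20.4 CPM, stood near the level of plain Wild type cortex, at 15.2 to 19.1 CPM, although cortex and hippocampus were counted on different gene sets.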

How the data were processed

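Per the labels' protocols, RNA from whole cortex, hippocampus and NEUN-sorted cortical nuclei was made into TruSeq Stranded mRNA libraries. The deposited values are whole-number counts of reads per Ensembl gene, not normalized; per the submitters' processing notes, the tools named are STAR 2.5.4a and HTSeq 0.11.0, with mm9, and the annotation release and strand setting are not given in the sources used here. Lines that name no gene held 21.14% to 36.97% of the reads in a library and were left out of library sizes and tests. Of the 75 samples of the series, 49 were not used here.

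Symbols were taken from an Ensembl name table; the 2 gene sets share 32601 identifiers, which served fits across hippocampus and cortex. CPM is the count of a gene for every 1 M reads assigned to genes. Each comparison was fitted on its own groups over all genes with edgeR 4.0.16 (R 4.3.3; TMM, filterByExpr with a minimum count of 10, robust quasi-likelihood F-test) and Benjamini-Hochberg adjustment over all genes, with a call at an adjusted p under 0.05. SE is the size of the log2 fold change divided by the root of F, and intervals are ±2 SE. The members and gene lists were chosen with earlier results of these data known, and layers and roles were assigned from general knowledge. Members called in a mutant comparison, or with its smallest p where none was called, are given for every library; of each other list, at most 4 called genes with the smallest p in Dnmt3a1-/- cortex are named (1 that the rule names is not reported here), and other values were added after they were seen.

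Whether same-numbered libraries pair was checked by the correlation of their deviations from the group means. In Dnmt3a1-/- cortex the correlations were 0.24, 0.396 and 0.188, and in Dnmt3a1_delta_N cortex 0.369, 0.254 and 0.449, and pairing by number was accepted in both. Alternatives were DESeq2 1.42.0, its size factors in edgeR, no filter on low counts, the replicate block, all 8 Wild type cortex libraries, and leaving out each library. The edgeR step was also run on simulated counts for the 5 mutant comparisons. These were drawn with the same spread for every gene, and without pairing or differences in cell content. They therefore cannot show how such differences bear on the calls.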

Additional observations from a re-analysis of the deposited data

Results flagged for a closer look

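The Nectin3 effect differed between Dnmt3a1-/- and Dnmt3a1_delta_N cortex by a test of the difference itself, at -0.59 on the log2 scale for the Dnmt3a1-/- effect minus the Dnmt3a1_delta_N effect. This call was lost in 10 of 16 alternatives, with adjusted p up to 0.14, and Nectin3 was itself lower in the n series than in the plain series of Wild type cortex (-0.37, adjusted p = 0.0026). Lmo4, a LIM-only transcriptional cofactor, had log2 fold changes of opposite sign in hippocampus and nuclei, and the groups did not overlap in either source. In nuclei the groups do not overlap for 38.5% of all genes, and for 3 members higher and 6 lower. In hippocampus they do not for 5 members higher and 2 lower, and the share over all genes is not given here. It was 76.3, 70.3 and 79.7 CPM in Dnmt3a1-/- hippocampus, against 61.5, 70.1 and 67.0 CPM in Wild type, a log2 fold change of 0.17. In nuclei labelled Dnmt3a1-/- it was 157 and 168 CPM, against 178 and 171 CPM in Wild type nuclei, a log2 fold change of -0.10. Neither value passed edgeR's test, and the difference between the 2 sources was not tested.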

How the results depend on the processing

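With the replicate block, members called moved to 18 and genes called to 4941 in Dnmt3a1-/- cortex, to 6 and 740 in nuclei, and to 2 members and 0.749% of genes in Dnmt3a1_delta_N cortex. Members called moved under the block to 3 for the Dnmt3a1-/- minus Dnmt3a1_delta_N difference and to 2 for the cortex minus nuclei difference, genes called in Dnmt3a2-/- cortex moved to 55, and genes called in hippocampus fell to 246, where Wfs1 had an adjusted p of 0.052. In hippocampus, Dnmt3a2-/- cortex and nuclei the libraries share only a number: same-numbered hippocampus libraries correlated at -0.025, 0.318 and 0.058, not each best with its own number, and the other 2 comparisons have 2 pairs each. The 6 members called in nuclei under the block were Nectin3, Nrgn, Fezf2, Rorb, Mef2c and Otof.

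DESeq2 called 8 genes in Dnmt3a2-/- cortex, 31 in Dnmt3a1_delta_N cortex, 597 in hippocampus and 80 in nuclei, against 1, 0, 396 and 39 in edgeR. Without the filter on low counts, 64 genes and 1 member (Sulf1) were called in Dnmt3a2-/- cortex, 17 genes in Dnmt3a1_delta_N cortex, 1039 genes in hippocampus, and 243 genes and 1 member (Nectin3) in nuclei. With all 8 Wild type libraries, 2 genes were called in Dnmt3a2-/- cortex. The cause of these moves was not tested.

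Leaving out 1 library at a time gave 6 to 12 members and 1599 to 2725 genes in Dnmt3a1-/- cortex, the fewest members without Dnmt3a1-/- replicate 1 and the most without replicate 3. It gave 0 to 2 members and 25 to 139 genes in Dnmt3a2-/- cortex, 0 members and 0 to 2 genes in Dnmt3a1_delta_N cortex, 2 to 4 members and 86 to 783 genes in hippocampus, and 0 to 3 members and 4 to 364 genes in nuclei. The differences between effects gave 0 members (cortex minus hippocampus), 0 to 1 (Dnmt3a1-/- minus Dnmt3a1_delta_N) and 0 to 2 (cortex minus nuclei). Wild type sources gave 29 to 31 members (nuclei) and 29 to 32 (hippocampus), and Wild type series 12 to 20 (r against plain), 5 to 10 (n against plain) and 8 to 16 (r against n). Where a group was left with 1 library, that library was assumed to vary like the rest. The log2 fold changes of the cortex calls stayed between 0.70 and 0.90 for Otof, 0.41 and 0.62 for Rprm, 0.30 and 0.42 for Crym, -0.78 and -0.66 for Neurod6, -0.73 and -0.60 for Nectin3, -0.52 and -0.46 for Mef2c, 0.27 and 0.48 for Fezf2, and -0.32 and -0.22 for Nrgn, of which Fezf2 and Nrgn lost their calls in some of these fits. None of the named log2 fold changes that were recomputed changed direction under any alternative.

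Low counts limit Nxph4 throughout, and Foxp2 and Oprk1 in hippocampus.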
